A study of Homo sapiens with 4 samples.

Results

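The subject of this account is the H3K9ac landscape of chromosome 15 beyond 35 Mb, which is most of the long arm of that chromosome. Its members are the called H3K9ac regions of chromosome 15 whose midpoint lies above position 35000000 on hg19. They numbered 855 of 26828 regions in the control library and 1267 of 39303 in the RBBP4 shRNA library. The stretch was chosen by score rank and sharing: strong regions without a counterpart in the other library were already known to occur here in both directions. Both measures are therefore given below as descriptions without a test.

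The cells were of the established human glioblastoma line T98G, taken at passage 4. Lentivirus had given them either the control shRNA, shNT, or an RBBP4 shRNA, shRBBP4. There was 1 H3K9ac ChIP-seq library for each, and thus no replicate against which to set any difference. The matching input libraries, which show the DNA content of each culture, were not analysed here, nor was the level of RBBP4. The depth is unknown, so the number and rank of called regions do not measure how much of the mark is present.

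H3K9ac is acetylation of histone H3 at lysine 9, a mark of active promoters and of enhancers. Acetyltransferases write it and histone deacetylases remove it. RBBP4 is a histone-binding WD-repeat protein, and it is a subunit of several chromatin complexes, among them the deacetylase complexes NuRD and SIN3, Polycomb repressive complex 2 and the histone chaperone CAF-1. The long arm of chromosome 15 carries, among many others, genes of SMAD and MAP kinase signalling, of mitosis and of DNA repair. No gene annotation of hg19 was at hand, so regions are named by position and no gene is assigned to them.

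The regions of this stretch were as unequal in number between the libraries as those of the other chromosomes. The ratio of shRBBP4 to shNT regions was 1.48 (95% interval 1.36 to 1.62, counting error only), against 1.46 (1.44 to 1.48) on all other chromosomes. The regions covered 244 kb in shNT and 398 kb in shRBBP4. Their median width was 208 bp in shNT and 215 bp in shRBBP4. Joined across gaps of up to 1 kb, they formed 552 clusters in shRBBP4 and 388 in shNT (ratio 1.42, 1.25 to 1.62). Chromosome 15 up to 35 Mb differed, with 56 regions in shNT and 169 in shRBBP4. The shNT member nearest to the 35 Mb limit began at 35260841, and the last shNT region left out ended at 34880619. In shRBBP4 these positions were 35261239 and 34874809.

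The share of members without a counterpart was above that of the whole list in both libraries. Sharing chose the stretch, so these shares are descriptions and nothing is read from their distance to the whole lists. In shNT, 72 of 855 members had no shRBBP4 region within 1 kb (8.42%, exact Clopper-Pearson 95% interval 6.65 to 10.5), against 6.24% of the whole shNT list. In shRBBP4, 379 of 1267 members had no shNT region within 1 kb (29.9%, 27.4 to 32.5), against 25.7% of the whole list. On chromosome 15 up to 35 Mb the shares were 1.79% in shNT (1 of 56) and 60.9% in shRBBP4 (103 of 169). The intervals treat regions as independent, although they lie in groups, on average 2.20 to a cluster in shNT and 2.30 in shRBBP4. Set among the 22 other chromosomes, the stretch had the fifth highest share without a counterpart in shRBBP4 and the sixth highest in shNT. Outside 5 parts described below, picked after their values were seen, 29 of 491 shNT members lacked a counterpart (5.91%). In shRBBP4 it was 235 of 765 members there (30.7%). Leaving out parts picked in this way can in itself shift the shares, so nothing is read from them.

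Members without a counterpart were mostly weak, and their distance to the other library varied widely. A score percentile is the share of the library's own list that scores no higher. The median percentile of members without a counterpart was 27.4 in shNT and 36.2 in shRBBP4, against 27.4 and 33.3 in the whole lists. Their median distance to the nearest region of the other library was 22.2 kb in shNT and 32.8 kb in shRBBP4. In shRBBP4, 163 of the 379 lay between 20 and 100 kb from the nearest shNT region, against 3104 of 9632 (32.2%) on the other chromosomes. A further 72 (19.0%) lay farther away, against 22.8% on the other chromosomes. In shNT, 18 of the 72 lay between 20 and 100 kb (against 28.1% on the other chromosomes) and another 18 farther away (against 17.1%).

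**Figure D1:**
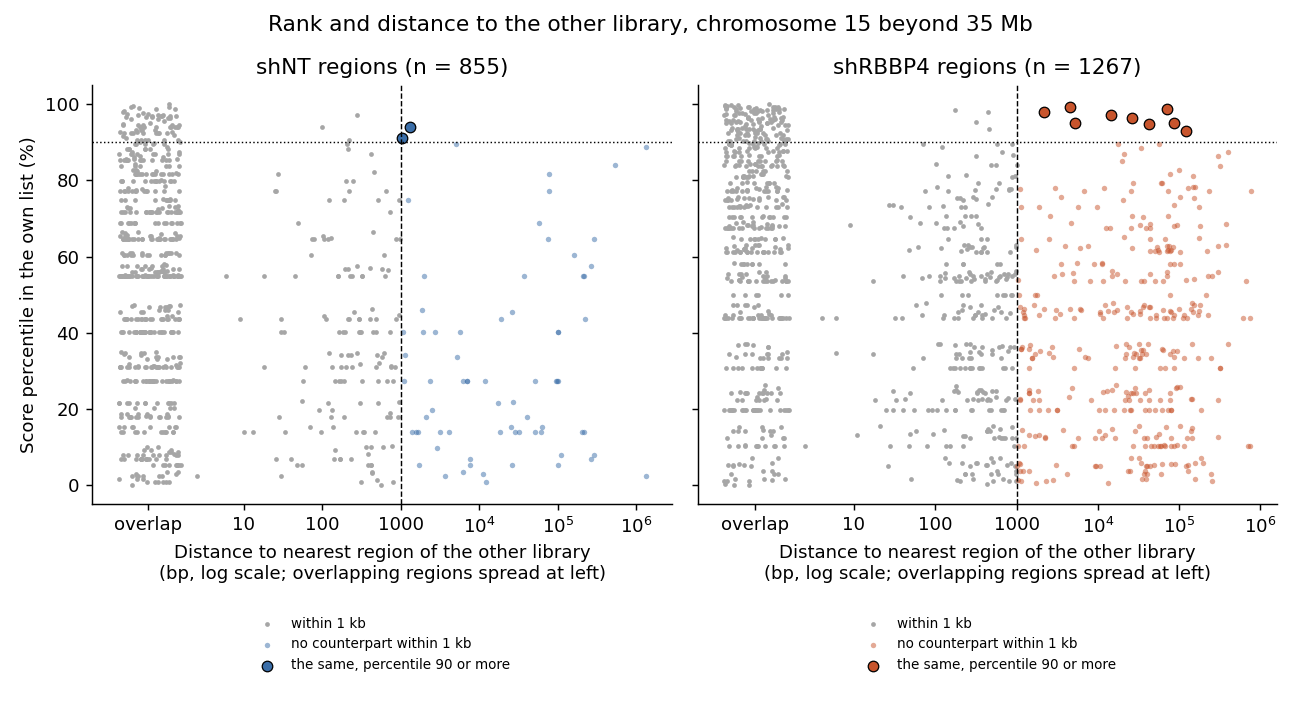
Each point is 1 called region of chromosome 15 beyond 35 Mb, with the distance to the nearest region of the other library on a log axis (bp) and the score percentile in its own list on the vertical axis (%). The 2 strong shNT regions without a counterpart lie just past the 1 kb limit (dashed), while the 9 in shRBBP4 lie between 2.19 and 122 kb from the nearest shNT region.

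Overlap followed the same order. A region of the other library overlapped 633 shNT members by at least 1 bp (74.0%, 71.0 to 76.9), against 77.0% of the whole shNT list. In shRBBP4 it was 580 members (45.8%), against 50% of the whole list. Overlapped members were wider than the others: the median width was 230 bp for overlapped and 156 bp for other shNT members, and 310.5 and 178 bp for shRBBP4 members. They also ranked higher, with median percentiles of 55.9 against 31.6 in shNT and 69.6 against 37.1 in shRBBP4. The whole lists showed the same order. Median widths there were 246 and 152 bp in shNT and 303 and 164 bp in shRBBP4. Median percentiles there were 58.1 against 31.0 in shNT and 68.8 against 34.7 in shRBBP4.

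The share of shRBBP4 members without a counterpart was lower at higher ranks. It lay between 40.7% and 44.0% in the 5 classes of 10 percentiles up to percentile 50, and was 9.57% from percentile 80 to 90. The class from percentile 40 to 50 is named because it differed most from the other chromosomes. There 58 of 132 shRBBP4 members had no counterpart (43.9%, 35.3 to 52.8), against 31.0% (29.5 to 32.4) on the other chromosomes. Some classes lay closer, with 40.7% against 42.7% from percentile 10 to 20 and 9.57% against 8.98% from 80 to 90. In each library 2 of the 9 classes below percentile 90 had an interval above the value of the other chromosomes, and none had one below it. Sharing chose the stretch and the intervals treat grouped regions as independent, so this count is no test. Some margins were thin. In the shRBBP4 class from percentile 70 to 80 the lower bound was 14.4%, against 14.3%. The shNT class from 80 to 90 rested on 4 of 83 regions. Members at percentile 90 or more, called strong here, chose the stretch, so nothing is read from their shares: 68 of 73 were overlapped in shNT, where the whole list had 99.0%, and 124 of 137 in shRBBP4, where it had 93.3%.

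**Figure D2:**
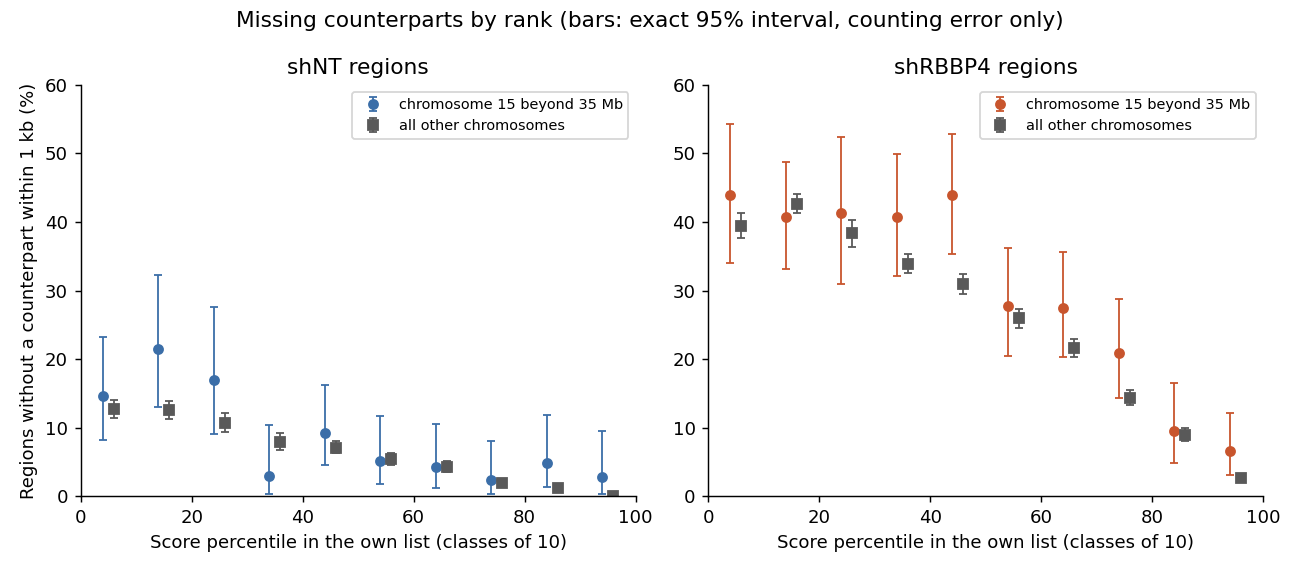
Points give the share of regions without a counterpart within 1 kb (%) in classes of 10 score percentiles, for chromosome 15 beyond 35 Mb (circles) and all other chromosomes (squares), with exact 95% intervals for counting error. From percentile 40 to 50, the class that differed most, the shRBBP4 share was 43.9%, against 31.0% on the other chromosomes. The highest class holds the regions that chose the stretch and is shown for completeness.

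Strong regions without a counterpart within 1 kb numbered 11, with 2 in shNT and 9 in shRBBP4. The 2 were drawn from 73 strong shNT members, where the whole list had 0.148% (4 of 2699). The 9 were drawn from 137 strong shRBBP4 members, where the whole list had 2.97% (121 of 4072). These counts chose the stretch, so nothing is read from them against those shares. They are described below by position, since their surroundings differ. The maps around the 11 regions number them as sites 1 to 11 in the order of position.

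Sites 1 to 3 range from the flank of shared clusters to open stretches. Site 1, in shRBBP4 from 44069343 to 44070113, was 771 bp wide and stood at percentile 97.0, with the nearest shNT region 14.5 kb away. It lay in a rich neighbourhood: within 50 kb of its midpoint there were 15 shRBBP4 regions, 5 of them strong, and 6 shNT regions, 2 of them strong. Site 2, from 51323166 to 51323370, was a narrow region of 205 bp at percentile 92.9. Its nearest shNT region was 122 kb away, and the sole shRBBP4 region beside it within 50 kb belonged to the same cluster. Site 3, from 52385946 to 52386145, was only 200 bp wide but stood at percentile 98.6. It was 1 of 4 shRBBP4 regions in a cluster of 1363 bp, and the nearest shNT region was 71.0 kb away.

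Sites 4 and 5 belong to 1 neighbourhood, with 9 shNT regions and 10 shRBBP4 regions within 50 kb. Site 4, from 56189715 to 56190010, stood at percentile 97.9 in shRBBP4, 2.19 kb from an shNT region at percentile 79.7. Site 5, from 56199344 to 56200002, stood at percentile 94.9, 5.17 kb from an shNT region at percentile 79.9. The neighbourhood was called in both libraries but ranked differently: 5 of its shRBBP4 regions were strong and none of its shNT regions was, the best standing at percentile 85.4. In covered length it held 7.16 kb in shRBBP4 and 2.80 kb in shNT.

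Site 6 had the highest rank of the 11. It ran from 59587470 to 59588397 in shRBBP4, spanned 928 bp and stood at percentile 99.3. The nearest shNT region, 4.50 kb away from 59592894 to 59593033, was 140 bp wide and stood at percentile 40.3. It was the single shNT region within 50 kb, against 8 shRBBP4 regions that covered 2.81 kb.

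Site 7 was the stronger of the 2 shNT regions. It ran from 63797670 to 63797931 and stood at percentile 93.9 in shNT. A single shRBBP4 region of 141 bp at percentile 53.6 lay 1.31 kb away, and it was the only one within 50 kb. Site 7 formed a cluster of 2 shNT regions that spanned 769 bp, without an shRBBP4 region.

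Sites 8 to 10 were again shRBBP4 regions. Site 8, from 76050410 to 76050789 at percentile 94.9, was the first of 3 regions in a cluster of 1055 bp. No shNT region lay within 50 kb of it, the nearest being 85.8 kb away. Site 9, from 80772801 to 80773333 at percentile 94.8, was the only strong one of 13 shRBBP4 regions within 50 kb. The control library had 1 region there, at percentile 14.1. Site 10, from 90905536 to 90905880 at percentile 96.4, lay 26.1 kb from an shNT region at percentile 96.2. It was the only shRBBP4 site whose nearest shNT region was itself strong.

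Site 11, the other shNT region, lay at the edge of a cluster called in both libraries. It ran from 101836159 to 101836444 at percentile 90.97, and the nearest shRBBP4 region, from 101834488 to 101835112 at percentile 75.5, was 1.05 kb away. The joint cluster spanned 2078 bp and held 3 shNT regions, so that the control library reached farther along it. Within 50 kb there were 9 shNT regions, 2 of them strong, and 4 shRBBP4 regions, none of them strong.

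**Figure D3:**
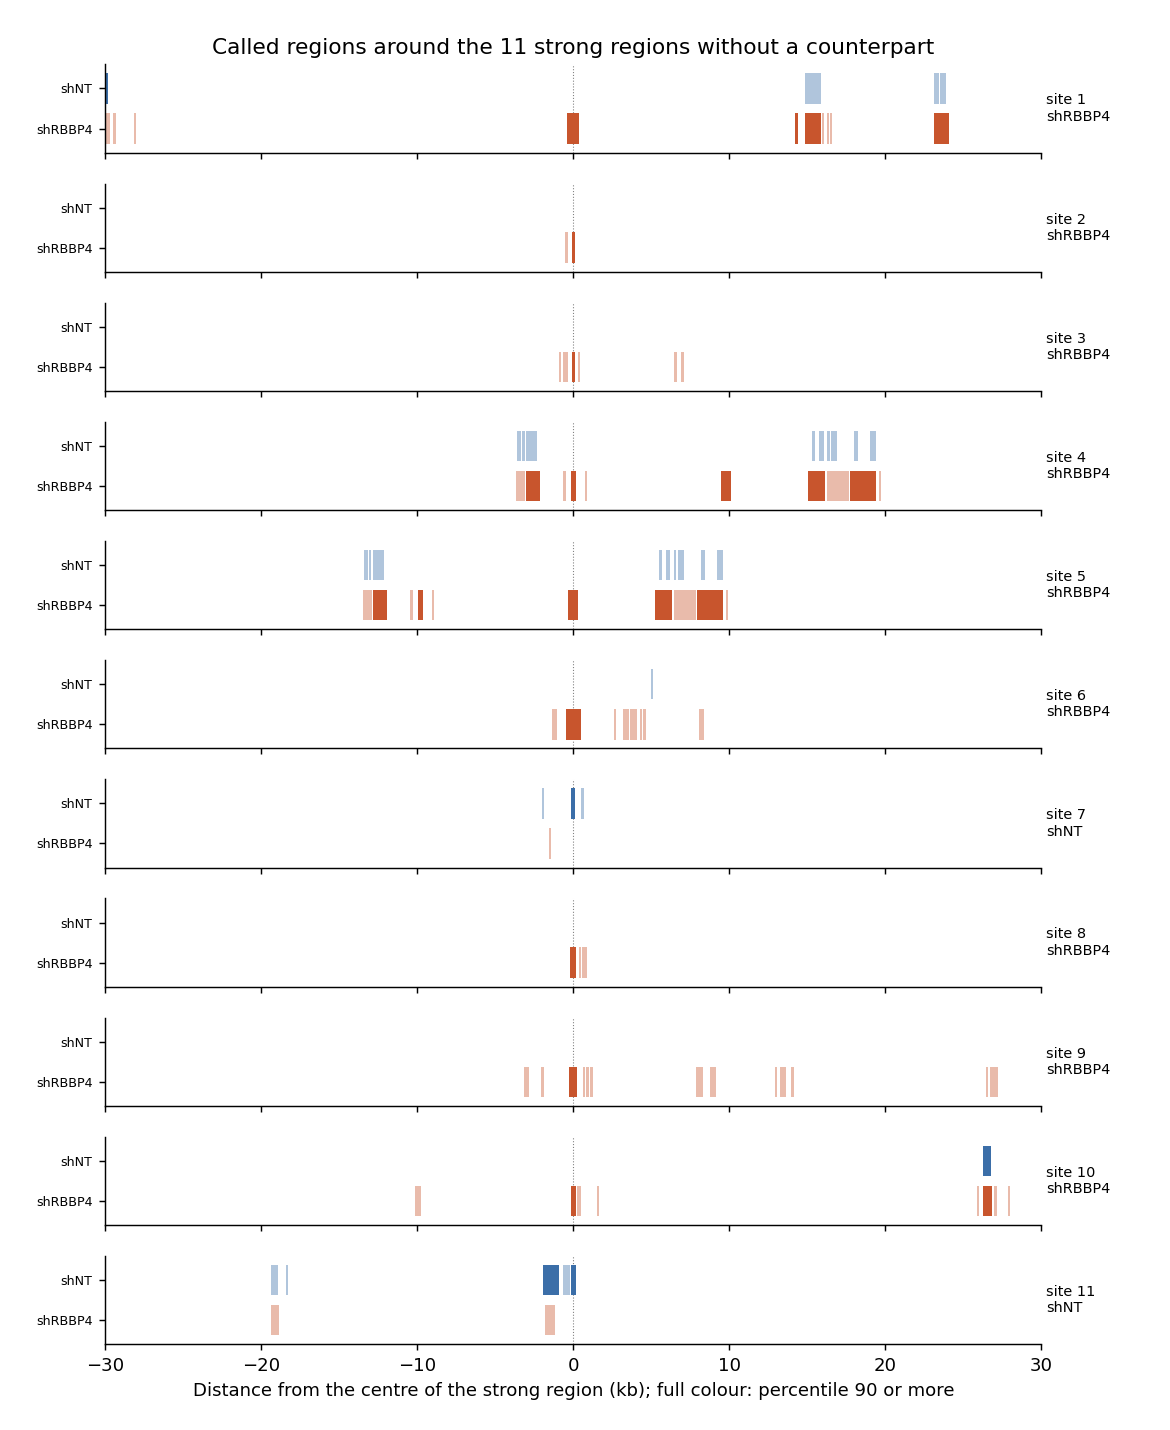
Called regions within 30 kb on either side of the 11 strong regions without a counterpart, as distance from the centre of each (kb), with shNT above and shRBBP4 below in each panel and full colour for percentile 90 or more. Sites 2, 3, 8 and 9 show no shNT region, sites 1, 4, 5, 6 and 10 have clusters of both libraries beside them, and the 2 shNT sites (7 and 11) have an shRBBP4 region just past 1 kb.

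The strong regions without a counterpart thus differed in isolation. Of the 9 in shRBBP4, 3 had no shNT region within 50 kb, and 5 had no other strong shRBBP4 region there. With the limit for a counterpart set at 5 kb in place of 1 kb, none of the 2 shNT regions and 7 of the 9 shRBBP4 regions remained. Among members without a counterpart, those just under percentile 90 were an shNT region from 40862183 to 40862375 at percentile 89.6, with an shRBBP4 region 5.02 kb away, and an shRBBP4 region from 80786325 to 80786687, also at 89.6, with an shNT region 55.7 kb away. The lowest of those over it were site 11 in shNT and site 2 in shRBBP4.

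The strongest members were found in both libraries. The top member of both lists was the same place: an shNT region from 89010687 to 89010903 and an shRBBP4 region from 89010685 to 89011759, each the fifth highest-scoring region of its whole list. The next shNT members began at 85196686, 66796441, 65588194 and 93443618, with percentiles from 99.0 to 99.4. Their best overlapping shRBBP4 regions stood at percentiles 92.3, 98.6, 83.7 and 97.3. The next shRBBP4 members began at 90808142, 66797196, 44116418 and 76628294, with percentiles from 99.5 to 99.6. Their best overlapping shNT regions stood at percentiles 65.6, 97.4, 92.4 and 81.6. The region from 90808142 to 90808823 thus had the lowest-ranked partner of the 10.

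The widest members were shared too, but broken up differently. The widest shNT member, from 93426675 to 93428996, was 2322 bp wide, of which 3 shRBBP4 regions covered 85.6%. The second widest, from 42565899 to 42567662, was 1764 bp wide although it stood only at percentile 21.5, and 38.8% of it was covered by 4 shRBBP4 regions. The others began at 89164586, 67359084 and 93445102, with 94.8%, 94.7% and 36.9% covered. The widest shRBBP4 member, from 59039559 to 59041324, spanned 1766 bp, and 5 shNT regions covered 45.5% of it. That from 56207617 to 56209248, beside sites 4 and 5, was 39.3% covered. The remaining ones began at 68570699, 72521068 and 83734441, with 85.1%, 76.9% and 52.6% covered.

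Regions of both lists together formed 591 clusters. Of these, 317 held regions of both libraries (53.6%, 49.5 to 57.7), 50 held shNT regions alone (8.46%) and 224 held shRBBP4 regions alone (37.9%). On the other chromosomes the shares were 58.0%, 7.25% and 34.8%. Single regions made up 40 of the 50 shNT clusters and 150 of the 224 shRBBP4 clusters. The cluster with most regions of shNT alone, from 40986559 to 40988716, held 4, of which the best stood at percentile 40.3. Clusters of shRBBP4 alone reached 5 regions, from 59062317 to 59065207, from 57509644 to 57513604 and from 58731846 to 58734403. The first of these covered 2.20 kb, and its best region stood at percentile 86.8.

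The largest joint clusters held both libraries in unequal parts. The longest ran from 63335301 to 63342980, a span of 7.68 kb, with 11 shNT regions that covered 3.32 kb and 6 shRBBP4 regions that covered 2.21 kb. The next, from 72518110 to 72525365, held 9 regions of each library, with 3.49 kb covered in shNT and 5.13 kb in shRBBP4. The cluster from 96878182 to 96884764 leaned to shNT, with 2.95 against 1.17 kb and best percentiles of 93.2 and 61.1. That from 93443616 to 93449554 also held more shNT sequence, 4.79 against 3.26 kb, with best percentiles of 99.0 and 97.3. The fifth, from 39871361 to 39876830, had similar lengths, 1.88 kb in shNT and 2.09 kb in shRBBP4, but best percentiles of 81.6 and 99.1.

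Within the 317 clusters of both libraries, shRBBP4 more often covered more sequence, as in the whole genome. It did so in 214 clusters (67.5%, 62.0 to 72.6), against 71.9% of such clusters in the whole genome. The control library covered more in 103 (32.5%), against 27.9%. The best score percentile was higher in shRBBP4 in 198 clusters (62.5%, 56.9 to 67.8), against 63.3% in the whole genome, so this share was near the background. The size of the percentile difference, whatever its sign, had a median of 17.5 points here and 13.1 on the other chromosomes.

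The extremes of this difference were weak regions in 1 library facing strong or middling clusters in the other. From 88359367 to 88360948, shNT had 1 region of 123 bp at percentile 2.93, and shRBBP4 had 3 regions of 1068 bp in all with a best percentile of 97.9. Further clusters of this kind began at 85455004, 52273952, 76136066 and 42838995, with percentiles of 5.23 to 15.2 in shNT and 83.9 to 92.5 in shRBBP4. In the other direction, the cluster from 63188537 to 63189203 stood at percentile 81.6 in shNT and 2.92 in shRBBP4. Those that began at 101252919, 71086859, 41407495 and 40856587 stood at 77.2 to 85.4 in shNT and 10.3 to 22.4 in shRBBP4. In none of these 5 clusters was the shNT side strong.

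In windows of 1 Mb, the library with more regions varied along the chromosome, in shares near those of the whole genome. Of 68 windows, 60 held a region. In 45 of the 60 shRBBP4 had more regions, against 77.5% of windows in the whole genome. In 11 shNT had more (18.3%), against 15.2%. Across these windows, which are not independent and come from the same pair of libraries, Spearman's correlation of the counts was 0.78. The longest stretch without any region, from 53082511 to 55487312, spanned 2.40 Mb.

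The fullest windows also held some of the largest differences. The window from 90 to 91 Mb had 30 regions in shNT and 59 in shRBBP4, that from 75 to 76 Mb had 38 and 59, and that from 85 to 86 Mb had 34 and 55. The largest excess of shRBBP4 regions after the first of these was from 80 to 81 Mb, with 12 in shNT and 39 in shRBBP4, and from 39 to 40 Mb, with 11 and 35. The largest excess of shNT regions was from 41 to 42 Mb, with 26 in shNT and 11 in shRBBP4, and from 63 to 64 Mb, with 24 and 12. The windows from 40 to 41 Mb, with 30 and 24, and from 96 to 97 Mb, with 22 and 16, came next.

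**Figure D4:**
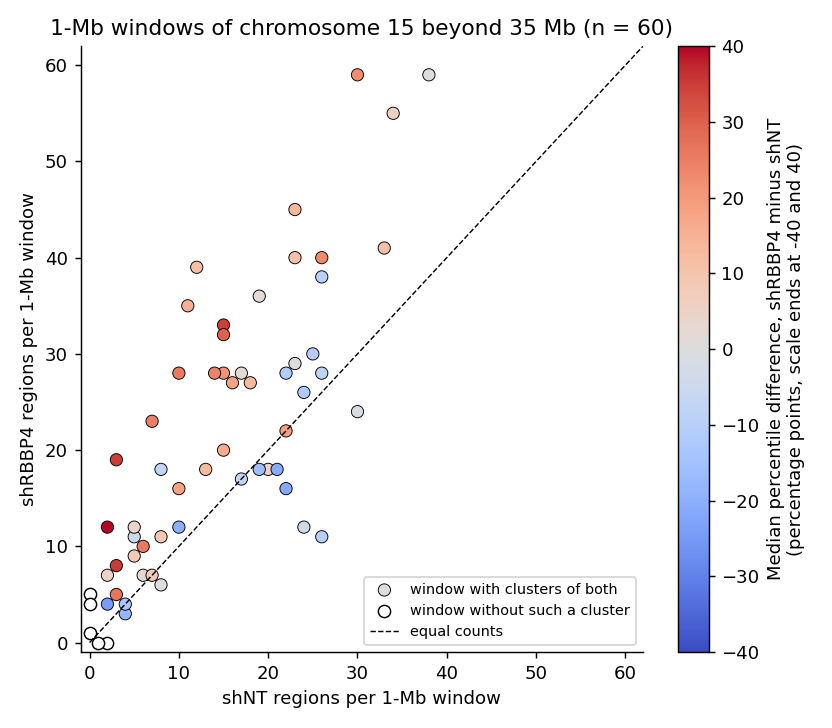
Each of the 60 points is a 1-Mb window with at least 1 region, placed by its number of shNT and shRBBP4 regions, with the dashed line at equal counts. The colour gives the median difference in best score percentile (shRBBP4 minus shNT, percentage points) over the clusters of both libraries in the window. Of the windows, 45 lie above the line and 11 below it.

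Pooled over windows, clusters leaned in rank to the library with more regions, but single windows did not always do so. In the 11 windows with more shNT regions, the best percentile was higher in shRBBP4 in 16 of 50 clusters of both libraries (32.0%). In the 45 windows with more shRBBP4 regions it was so in 174 of 252 (69.0%), against 63.3% of such clusters in the whole genome. By window, the median percentile difference favoured shRBBP4 in 32 of the 42 windows with more shRBBP4 regions that held such clusters, and shNT in the other 10. Among windows with more shNT regions it favoured shNT in 8 of 9. Of the shNT regions, 38 of 177 lacked a counterpart in the windows with more shNT regions (21.5%). In the windows with more shRBBP4 regions it was 31 of 628 (4.94%). The whole shNT list had 6.24%. Sorting windows by number in itself favours such a contrast, so nothing further is read from it. Number, rank and sharing come from the same pair of lists and are not independent of each other.

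Some neighbouring windows leaned to the same library in number or in rank, but agreement between neighbours was not measured. The 5 stretches below, of 2 to 10 Mb, were picked after these window values had been seen, so they are descriptions. From 51 to 61 Mb there were 103 regions in shNT and 231 in shRBBP4, and 39 of 43 clusters of both libraries had the higher percentile in shRBBP4. Strong regions numbered 4 of 103 in shNT and 32 of 231 in shRBBP4, against 10.1% and 10.4% of the whole lists. This part includes the longest stretch without any region, of 2.40 Mb. From 43 to 46 Mb the counts were 64 and 113, with 22 of 26 clusters higher in shRBBP4 and with 5 and 22 strong regions. All 64 shNT regions there had an shRBBP4 region within 1 kb, as did 93.8% of the whole shNT list. Sites 1 to 6 lie in these 2 stretches.

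The reverse was found in 3 stretches, though not in each of their windows. From 65 to 66 Mb there were 22 shNT and 28 shRBBP4 regions, and from 93 to 94 Mb 26 and 28. From 40 to 42 Mb there were 56 regions in shNT and 35 in shRBBP4. Of the 56, 20 had no counterpart (35.7%), against 6.24% of the whole shNT list. Of 16 clusters of both libraries, 5 had the higher percentile in shRBBP4. Strong regions did not lean there, with 2 in each library. From 63 to 66 Mb the counts were 67 and 58, with 8 of 24 clusters higher in shRBBP4. Strong regions numbered 8 of 67 in shNT and 0 of 58 in shRBBP4, against 10.1% and 10.4% of the whole lists. From 91 to 98 Mb the counts were 74 and 65, with 2 of 18 clusters higher in shRBBP4 and with 9 and 3 strong regions. Site 7 lies in the second of these stretches, and site 11 in none.

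Together, the percentile was higher in shRBBP4 in 61 of 69 clusters of the first 2 stretches (88.4%) and in 15 of 58 of the other 3 (25.9%). The share in the whole genome was 63.3%. The stretches were picked with such values in view, so nothing is read from their distance to that share. With the shRBBP4 list shortened to the length of the shNT list, the counts became 56 of 67 and 4 of 46. Percentiles were then taken within the shortened list. Outside the 5 stretches the count was 94 of 175. The shortened list comes from the same data that the stretches were picked from, so it lends them no support. In the lists of equal length the ratio of shRBBP4 to shNT regions was 1.67 from 51 to 61 Mb and 1.41 from 43 to 46 Mb. It was 0.411 from 40 to 42 Mb, 0.552 from 63 to 66 Mb and 0.527 from 91 to 98 Mb. Outside the 5 stretches it was 1.06.

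**Figure D5:**
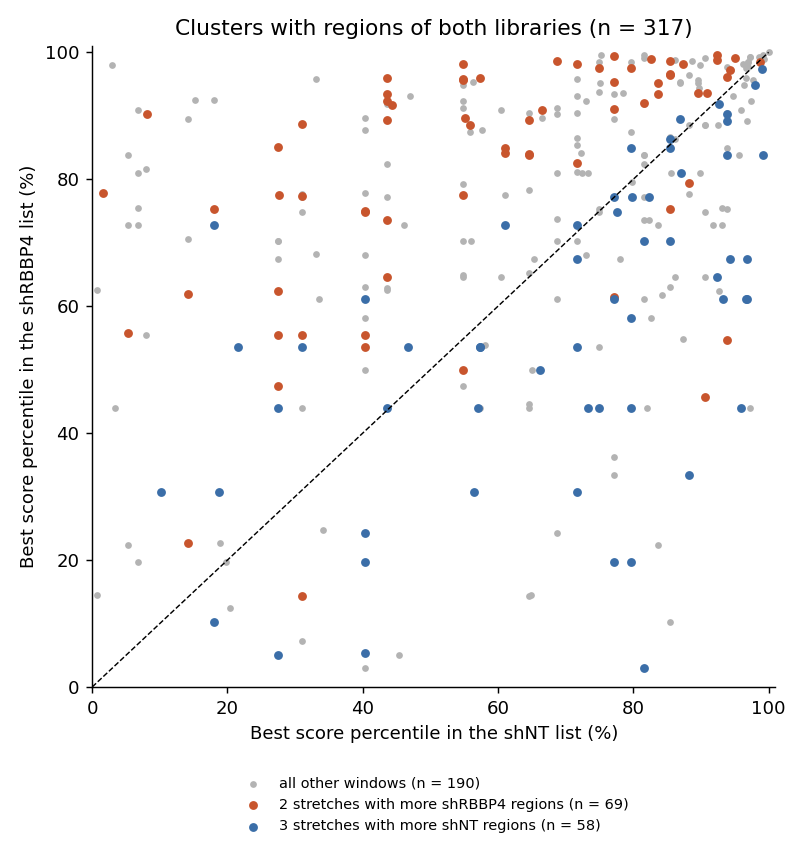
Each point is 1 of the 317 clusters with regions of both libraries, placed by the best score percentile of its regions in the shNT list and in the shRBBP4 list (%), with the dashed line at equal percentiles. Of the 69 clusters in the 2 stretches with more shRBBP4 regions, 61 lie above the line, and of the 58 in the 3 stretches with more shNT regions, 15 do. The stretches were picked after the window values had been seen.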

How the data were processed

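H3K9ac was measured by ChIP-seq in 1 library per shRNA. The authors called regions separately in each library and deposited a score per region, whose scale is not stated per the file headers. The header carries the words macs2 and PE, and the submitters' processing notes list SICER, Picard, BWA and bcl2fastq 2.15.0, with hg19 and GRCh37 as builds, and say nothing of their roles. The threshold, the caller's version and the depth are not stated there.

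Starts were counted from 1. Scores were turned into percentiles within the whole own list, ties taking the highest rank. The 5 most common scores held 25.2% of shNT and 21.8% of shRBBP4 regions. Distances, overlaps and clusters were computed on the whole lists, and the members then taken. Regions named are the strong ones without a counterpart, the 5 highest-scoring and 5 widest of each library, the 5 longest clusters, the 5 largest percentile differences each way, windows by excess or number, and those at the limits. Clusters of 1 library with most regions were added after their values were seen. Members, lists and rules were chosen with earlier results of these data known. With 1 library per group no test between groups was made. Functions were tested on simulated lists. Alternatives were score limits, lists of equal length, overlap and gap limits, ranks by width, shifted windows and clusters. Computation used Python 3.11.15 with pandas 2.3.3, numpy 2.4.6 and scipy 1.17.1, and plots matplotlib 3.10.9.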

Additional observations from a re-analysis of the deposited data

How the results depend on the processing

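No paired analysis was possible because there was 1 library for each shRNA. The higher-scoring 50% of each list held 433 shNT and 644 shRBBP4 members, median widths of 273 and 315.5 bp, and 157 kb in shNT. Joined across 1 kb, there were 388 and 552 clusters spanning 374 and 604 kb, with medians of 670 and 801.5 bp. In lists of equal length, where only the shRBBP4 list was cut, the median shRBBP4 width was 268.5 bp and the ratio of regions 1.03. There, 82 clusters held shNT alone, 24 windows had more shNT regions, and 53.5% of clusters of both libraries ranked higher in shRBBP4, an alternative added after seeing the data. The shared share of shNT and shRBBP4 members became 68.1% and 41.8% with an overlap of at least 50% of the shorter region. It became 33.6% and 22.7% when the overlap was reciprocal, 64.0% and 53.7% after the cut to equal length, and 68.4% and 42.9% between the higher-scoring 50% of both lists. Strong shNT regions without a counterpart numbered 5 by overlap of 1 bp, 0 within 5 kb, 6 at percentile 80, 0 at percentile 95 and 1 by width. In shRBBP4 they numbered 20 at percentile 80 and 5 at 95. Ranked by width, 3 of the 11 sites stayed at percentile 90 or more, and in lists of equal length 10 of 11 did. Unknown depth and 1 library per group limit every value.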
